A study of Homo sapiens with 48 samples.

Results

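ABCA1 and 6 genes tied to the liver X receptors were followed in breast cancer cells given IGF-I, a ligand of the type I IGF receptor. The set of 7 genes was ABCA1, ABCG1, MYLIP, NR1H2, NR1H3, SREBF1 and LPCAT3, and a gene was represented by every probe set whose only symbol in the array annotation was that gene. Of the 7 genes, 6 had such probe sets, 19 in all, among 19775 genes and 54613 probe sets tested. NR1H2 had 0 probe sets listed under its symbol and was not analysed here. The genes were chosen by their measured response to IGF-I within each clone and their level without IGF-I, so those values are a description. No p-value is given for them, and counts of genes past a threshold only place them beside all genes.

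T47D-YA, a breast cancer line without IRS adaptor proteins, was the parent of all cells. Sublines #10 and #20 expressed IRS-1, and sublines #1 and #6 expressed IRS-2. Each subline is a single clone, so each isoform is represented by 2 clones, and differences between the isoforms were not tested. All cells spent 24 h in serum-free medium (SFM) before treatment. Cells then received SFM with fibronectin, either alone, called SFM here, or with IGF-I. RNA was taken after 4 h or 24 h. With 3 Affymetrix HG-U133 Plus 2.0 arrays (A, B and C) for every clone, treatment and time, there were 16 groups and 48 arrays. No label says whether these arrays came from separate cultures, so the error covers the spread between arrays, which may be technical.

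Values are log2 expression, and a difference of 0.58 to 0.59 on this scale is 1.5-fold. Array medians lay between 7.39 and 7.51. Luminal breast cancer markers were high, with 9 of 10 above the median of all genes (8.30), from 7.70 for TFF1, an estrogen-induced secreted peptide, to 14.81 for the keratin gene KRT18. Of 5 measured macrophage markers, 0 lay above that median, with means of 5.33 (TYROBP) to 7.29 (ITGAM). Of 6 fibroblast markers, 2 did, with means of 4.48 (LUM) to 10.03 (COL1A1). The log2 gap between the 3′ and 5′ control probe sets of actin, a sign of RNA quality, was smaller after IGF-I in all 8 comparisons, by 0.011 to 0.047. Its part in the results was not tested.

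Liver X receptors are nuclear receptors that sense oxysterols, the oxidized products of cholesterol. They bind DNA as partners of the retinoid X receptors, at repeats of a hexamer spaced by a few bases, and switch on genes that move cholesterol out of the cell and make unsaturated fatty acids and phospholipids. NR1H3 and NR1H2 encode the alpha and beta receptor. The target genes followed here were ABCA1 and ABCG1, whose transporters pass cholesterol to apolipoprotein A-I and to lipoprotein particles, MYLIP, whose ubiquitin ligase marks the LDL receptor for degradation, SREBF1, a transcription factor gene of fatty acid synthesis, and LPCAT3, which puts polyunsaturated fatty acids into phospholipids.

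The promoter of ABCA1 is shown because this gene had the widest differences between IGF-I and SFM at the leading probe sets of the 6 genes, and because its proximal promoter is a known site of liver X receptor binding. The stretch holds the 250 bases before the annotated start, on the minus strand at chr9:104928156-104928405 (GRCh38.p14, RefSeq). Capitals mark an E-box and a spaced hexamer repeat.
ABCA1: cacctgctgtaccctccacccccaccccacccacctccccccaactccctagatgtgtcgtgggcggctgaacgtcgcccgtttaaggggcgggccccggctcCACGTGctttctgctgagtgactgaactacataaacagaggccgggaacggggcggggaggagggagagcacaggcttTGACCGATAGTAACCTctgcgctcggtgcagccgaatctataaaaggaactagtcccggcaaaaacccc

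The repeat begins 69 bases before the start and reads AGGTTACTATCGGTCA on the other strand. It was found with the pattern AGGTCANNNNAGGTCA on both strands, with at most 1 mismatch in each hexamer, and it has 1 in each. Of 35116 promoter windows of the same length (250 bases before to 50 after a start), 484 held such a repeat, a share of 1.38%, and 7 held it without a mismatch. Windows were listed for 6 of the 7 genes, 9 in all because NR1H3 has 4, and the ABCA1 window was the 1 that held the repeat. No window was listed for ABCG1. The E-box, CACGTG, begins 147 bases before the start of ABCA1, and 7.26% of all windows held one. These matches describe letters in the windows and show no binding in these cells.

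ABCA1 (chromosome 9, 104781006 to 104928155) was lower 4 h after IGF-I in all 4 clones, as 20.7% of all genes were by sign alone. The difference on the log2 scale was -0.63 ± 0.10 (SE) in clone #10, -0.65 in clone #20, -0.37 in clone #1 and -0.58 in clone #6, with the same SE and 3 arrays a group. These correspond to levels 1.55-, 1.57-, 1.29- and 1.499-fold lower. An array cannot tell fewer expressing cells from less RNA per cell. The values come from the probe set with the highest mean of the 4 for ABCA1 (203504_s_at).

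In clone #10 at 4 h the SFM arrays A, B and C read 8.14, 7.94 and 8.12 and the IGF-I arrays 7.47, 7.28 and 7.54. In clone #20 the SFM arrays read 7.73, 7.61 and 7.75 and the IGF-I arrays 6.93, 7.13 and 7.08. In both IRS-1 clones every IGF-I array lay below every SFM array. In clone #1 the SFM arrays read 7.27, 7.03 and 7.17 and the IGF-I arrays 6.88, 6.57 and 6.91. In clone #6 the SFM arrays read 7.15, 7.21 and 7.10 and the IGF-I arrays 6.41, 6.61 and 6.70. The groups were apart in both IRS-2 clones too. Of all genes, 1.05% had every IGF-I array below every SFM array in all 4 clones at 4 h, and since these contrasts chose ABCA1, nothing is read from that share. The share in each clone was 11.6% in clone #10, 9.46% in clone #20, 11.9% in clone #1 and 8.69% in clone #6.

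At 24 h the clones spread out. The IGF-I minus SFM difference was -0.67 in clone #10 (1.59-fold lower), -0.33 in clone #1, -0.22 in clone #6 and -0.018 in clone #20. In clone #10 the SFM arrays read 7.74, 8.16 and 7.99 and the IGF-I arrays 7.28, 7.32 and 7.28. The IGF-I arrays were all below the SFM arrays and close to each other (SD 0.020 against 0.21).

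In clone #20 at 24 h the SFM arrays read 7.001, 6.988 and 6.960 and the IGF-I arrays 7.012, 6.879 and 7.004. The groups overlapped, and the SFM mean of 6.98 lay near the IGF-I mean of 6.96. In clone #1 the SFM arrays read 7.11, 7.14 and 7.01 and the IGF-I arrays 6.84, 6.68 and 6.73, with no overlap. In clone #6 the SFM arrays read 6.99, 6.58 and 6.93 and the IGF-I arrays 6.47, 6.75 and 6.62. These overlapped through SFM array B, and the difference was -0.41 without replicate B and -0.067 without replicate A.

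**Figure D1:**
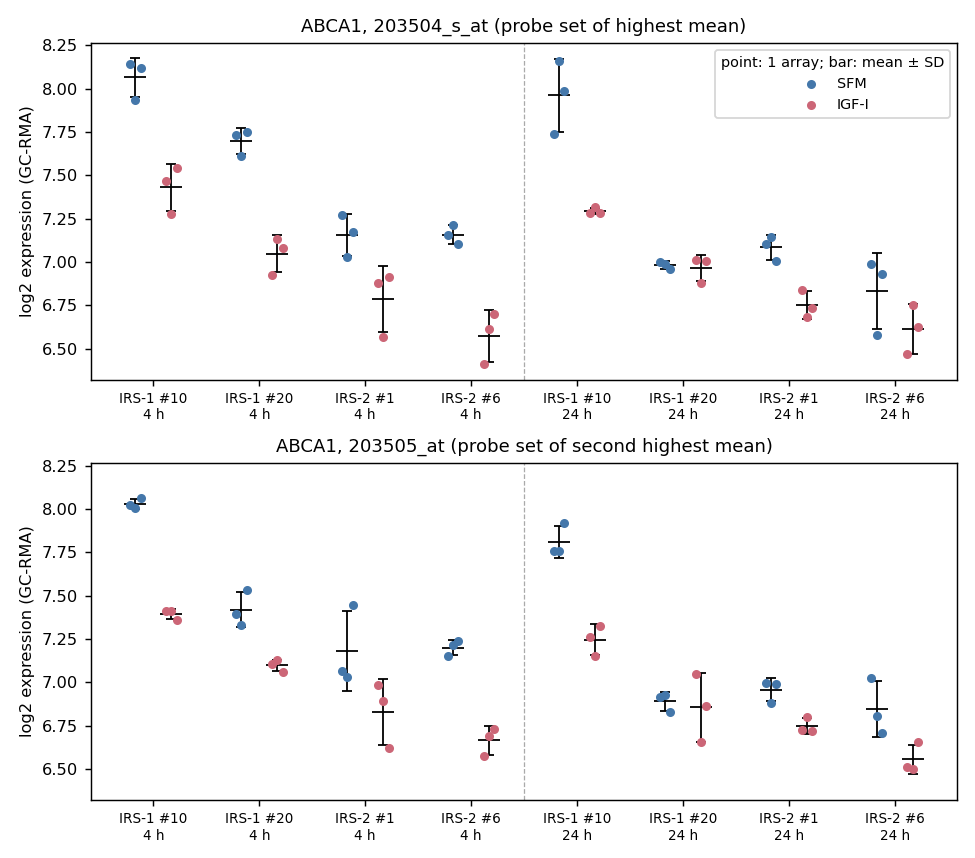
Log2 expression of ABCA1 on each array (points) with the mean and SD of 3 arrays (bars), SFM in blue and IGF-I in red, by clone and time on the x axis; the upper panel shows the probe set of highest mean and the lower panel the next one. At 4 h every IGF-I array lies below every SFM array of its clone in both panels, and at 24 h clone #20 shows overlapping groups in both.

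A second ABCA1 probe set (203505_at) had nearly the same mean, 7.11 against 7.15, and followed the first with a Pearson correlation of 0.98 over the 16 group means. At 4 h it gave -0.64 in clone #10, -0.32 in clone #20, -0.35 in clone #1 and -0.54 in clone #6. At 24 h it gave -0.56, -0.034, -0.21 and -0.29 in the same order. Both probe sets thus ordered clone #20 at 24 h last, and they differed most in clone #20 at 4 h.

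The remaining 2 ABCA1 probe sets were dimmer, with means of 6.22 (216066_at) and 5.41 (1570279_at), and did not follow the others. Their correlations with the leading probe set were -0.393 and -0.028. Their 16 differences after IGF-I ran from -0.22 to 0.16. With the mean of all 4 probe sets, the ABCA1 difference at 4 h shrank to values of -0.16 to -0.29.

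**Figure D2:**
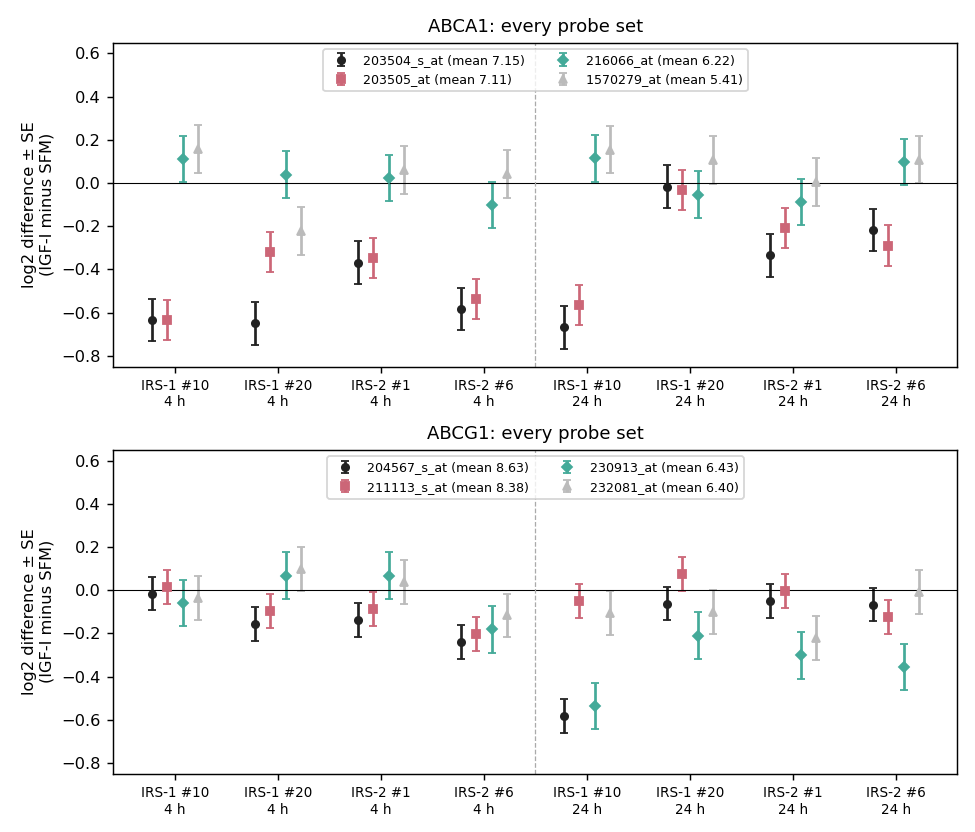
Log2 difference (IGF-I minus SFM) with its SE for each of the 4 probe sets of ABCA1 (upper panel) and of ABCG1 (lower panel) in the 4 clones at 4 h and 24 h; the legend gives each probe set's mean log2 level. The 2 brightest ABCA1 probe sets move together and away from the 2 dimmer ones, and ABCG1 in clone #10 at 24 h falls at 204567_s_at (-0.58) and 230913_at (-0.54) while 211113_s_at gives -0.051.

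ABCG1 (chromosome 21, 42199689 to 42297244) differed most in clone #10 at 24 h, where IGF-I arrays were 1.497-fold lower, -0.58 ± 0.078 (SE, n = 3). There the SFM arrays of its leading probe set (204567_s_at) read 8.35, 8.30 and 8.43 and the IGF-I arrays 7.74, 7.84 and 7.73. The groups were apart, as they were for 15.9% of all genes in this comparison, where the shares in clones #20, #1 and #6 at 24 h were 8.54%, 12.9% and 16.5%. In the other 7 comparisons the difference of this probe set ran from -0.24 in clone #6 at 4 h to -0.016 in clone #10 at 4 h.

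The 4 ABCG1 probe sets split in clone #10 at 24 h. The difference was -0.54 at 230913_at, -0.11 at 232081_at and -0.051 at 211113_s_at. At 230913_at the 24 h difference was also -0.21 in clone #20, -0.30 in clone #1 and -0.36 in clone #6. There the leading probe set gave -0.062, -0.049 and -0.067. The probe sets therefore disagree on the size of the ABCG1 change.

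MYLIP (chromosome 6, 16129086 to 16163887) had 6 probe sets, and its leading one (228098_s_at) was lower after IGF-I in all 8 comparisons. The differences ran from -0.27 ± 0.06 (SE) in clone #20 at 4 h to -0.020 in clone #1 at 24 h. By sign alone, 20.7% of all genes were lower in all 4 clones at 4 h and 13.9% at 24 h. In clone #20 at 4 h the SFM arrays read 10.06, 9.95 and 10.12 and the IGF-I arrays 9.93, 9.65 and 9.75. These were apart by a small gap, and 9.46% of all genes were apart in that direction there. In clone #10 at 24 h the difference was -0.19, with SFM arrays at 10.07, 10.22 and 10.24 and IGF-I arrays at 9.97, 9.99 and 9.99. A second probe set (223130_s_at) was also lower in all 8 comparisons, by 0.080 to 0.22. The remaining 4 probe sets ran from -0.22 to 0.26 and were not all of 1 sign.

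The 2 transcription factor genes of the set moved little. NR1H3 (chromosome 11, 47248300 to 47269033) had 1 probe set, and its difference ran from -0.17 in clone #20 at 4 h to -0.032 in clone #1 at 24 h, below 0 in all 8 comparisons. A value below 0 in all 4 clones was common, with 20.7% of all genes at 4 h and 13.9% at 24 h. SREBF1 (chromosome 17, 17811334 to 17836986) ran from -0.14 in clone #1 at 4 h to 0.062 in clone #10 at 4 h at its leading probe set (202308_at). A second SREBF1 probe set (1558875_at) ran from -0.12 to 0.17.

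LPCAT3 (chromosome 12, 6976185 to 7018476) ran from -0.084 in clone #1 at 4 h to 0.13 in clone #10 at 24 h at its leading probe set (213615_at). In the latter the SFM arrays read 8.37, 8.40 and 8.30 and the IGF-I arrays 8.50, 8.48 and 8.46. The IGF-I arrays were all higher there, by 0.13 on average. How many of all genes had arrays apart in that direction was not counted, so nothing is read from it. The second LPCAT3 probe set (202793_at) gave -0.061 in the same comparison.

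**Figure D3:**
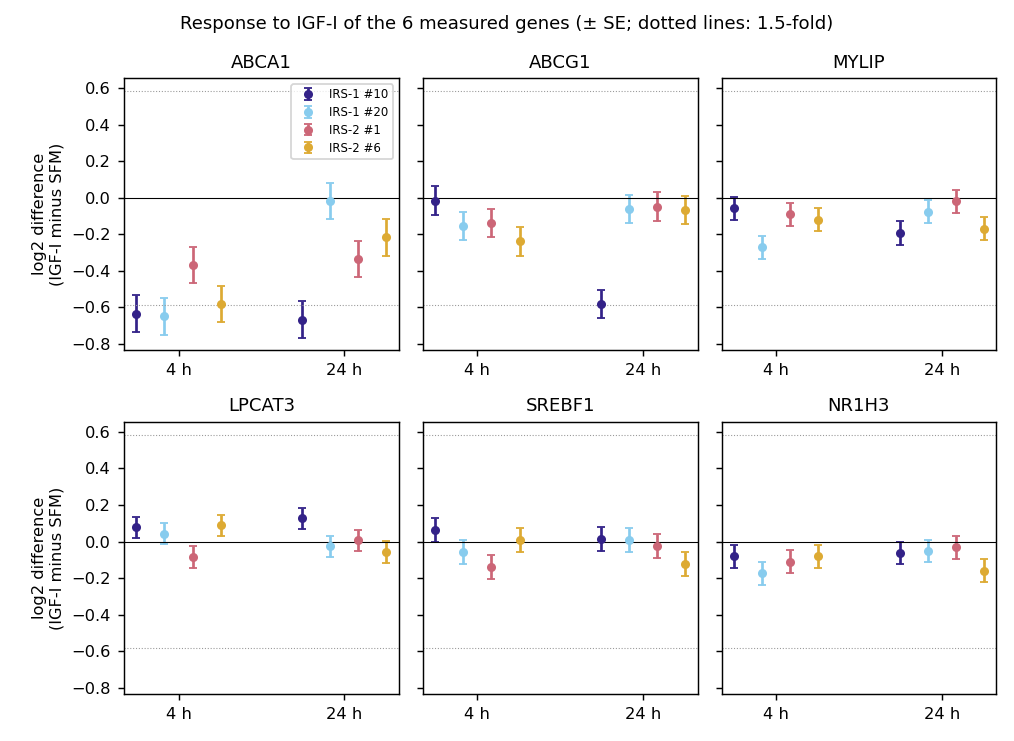
Log2 difference (IGF-I minus SFM) of the leading probe set of each of the 6 measured genes, with its SE, by time and clone; dotted lines mark 1.5-fold. ABCA1 lies below -0.3 in all 4 clones at 4 h, ABCG1 stands apart in clone #10 at 24 h (-0.58), and the other 4 genes stay between -0.27 and 0.13.

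A gene was counted as called where the adjusted p from limma was under 0.05 and the change at least 1.5-fold. ABCA1 met this in clone #10 and #20 at 4 h and in clone #10 at 24 h, 3 of 48 pairs of gene and comparison, all lower, where 0.0424% of all such pairs were. The share of all genes so called was 0.0303%, 0.0303%, 0.0152% and 0.0303% in clones #10, #20, #1 and #6 at 4 h, and 0.101%, 0.0455%, 0.0253% and 0.0607% at 24 h. In clone #6 at 4 h ABCA1 was just under the fold threshold (1.499-fold), as was ABCG1 in clone #10 at 24 h (1.497-fold). Without a fold threshold 9 of 48 pairs were lower, against 2.87% of all pairs: ABCA1 in 6 comparisons, MYLIP in 2 and ABCG1 in 1. The share of all genes lower was 1.47%, 3.54%, 0.794% and 1.58% in the same order at 4 h, and 6.65%, 2.95%, 1.62% and 4.34% at 24 h. ABCA1 was lower at an adjusted p under 0.05 in all 4 clones at 4 h, as 0.207% of all genes were. The call in clone #20 was lost without replicate A and that at 24 h without replicate B, where the differences were just under the fold threshold, and averaging the 4 ABCA1 probe sets left none of the 3. These contrasts chose the genes, so neither count is read as a result.

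Without IGF-I, ABCA1 stood highest in clone #10 at its leading probe set. The SFM means at 4 h were 8.07 ± 0.11 (SD, n = 3) in clone #10, 7.70 ± 0.08 in clone #20, 7.16 ± 0.05 in clone #6 and 7.16 ± 0.12 in clone #1. The lowest array of each IRS-1 clone lay above the highest array of the next clone in this order, and the 2 IRS-2 clones overlapped. How many of all genes were apart between clones in SFM was not counted. For this gene and those below, such gaps are therefore a description only. At 24 h clone #10 stayed highest at 7.96 ± 0.21, followed by clone #1 at 7.09 ± 0.07, clone #20 at 6.98 ± 0.02 and clone #6 at 6.83 ± 0.22. clone #20 and clone #6 overlapped at that time.

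ABCG1 had the reverse order at 4 h at its leading probe set. Its SFM mean was 9.16 ± 0.04 (SD, n = 3) in clone #1, 8.73 ± 0.17 in clone #6, 8.57 ± 0.13 in clone #20 and 8.10 ± 0.06 in clone #10. clone #6 and clone #20 overlapped, and the other neighbours did not. At 24 h the order was the same, from 9.41 to 8.36, and the 2 IRS-1 clones overlapped.

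At their leading probe sets the other 4 genes differed less between clones. The highest and lowest clone mean in SFM at 4 h were 0.41 apart for NR1H3, 0.39 for SREBF1, 0.27 for LPCAT3 and 0.15 for MYLIP, against 1.06 for ABCG1 and 0.91 for ABCA1. Other probe sets gave wider gaps at 4 h, 1.09 at 228097_at of MYLIP, where clones #10 and #20 were highest (7.33 and 7.18 against 6.39 and 6.24 in #6 and #1), and 0.668 at 202793_at of LPCAT3, where clone #1 was highest (8.58). At the leading SREBF1 probe set clone #1 held the highest mean at both times, 10.55, without overlap with the next clone. At the other (1558875_at) clone #20 was highest, at 8.09 and 8.15, and overlapped with the next clone. At 24 h the leading MYLIP probe set was lowest in clone #20 (9.65), apart from the other 3 clones (10.11 to 10.18).

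Time in SFM was compared within each clone, 24 h against 4 h. The levels of these SFM arrays were among the values that chose the genes, and they also enter the IGF-I comparisons, so these differences too are a description without p-values. ABCA1 was lower at 24 h in clone #20, 6.98 against 7.70, a log2 difference of -0.71 ± 0.10 (SE, n = 3 arrays). All 3 arrays at 24 h lay below all 3 at 4 h, as for 19.7% of all genes in that clone. This was the 1 pair of 24 (gene and clone) past the adjusted p and 1.5-fold, where 0.172% of all such pairs were lower, with shares of 0.0152%, 0.374%, 0.162% and 0.137% in clones #10, #20, #1 and #6. The second ABCA1 probe set gave -0.53, under 1.5-fold.

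In clone #6 ABCA1 differed by -0.32 at the leading probe set and by -0.35 at the second, with every 24 h array below every 4 h array. In clones #10 and #1 the leading probe set gave -0.10 and -0.071, with overlapping arrays, and the second gave -0.22 in both, with none. The 24 h arrays lay below the 4 h arrays for 7.13% of all genes in clone #10, 17.1% in clone #1 and 16.3% in clone #6. The differences between clones were not tested.

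MYLIP was also lower at 24 h in clone #20, by 0.39 on the log2 scale. The SFM arrays read 10.06, 9.95 and 10.12 at 4 h and 9.59, 9.67 and 9.69 at 24 h, with no overlap. Of its 6 probe sets, 5 were lower at an adjusted p under 0.05 there, with differences from -0.54 to -0.20, where 13.3% of all probe sets were lower, and the remaining one (227707_at) gave -0.14. SREBF1 differed in the same clone by -0.21, with overlapping arrays, and its second probe set gave 0.063. In this clone 16.6% of all genes were lower at 24 h at an adjusted p under 0.05, against 0.374% in clone #10, 4.74% in clone #1 and 5.54% in clone #6. Without a fold threshold 4 of 24 pairs of gene and clone were lower (ABCA1 in 2 clones, MYLIP and SREBF1), against 6.81% of all pairs, and nothing is read from these counts.

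ABCG1 had higher means at 24 h than at 4 h in 3 clones at its leading probe set, by 0.25 in clone #10, 0.24 in clone #1 and 0.19 in clone #6. In clone #20 the leading probe set gave -0.11. The next brightest probe set (211113_s_at) gave 0.16 in clone #10, 0.080 in clone #1 and -0.0023 in clone #6. At the dimmer probe set 230913_at the differences were 0.11, 0.40 and 0.085 in the same order. At 232081_at they were -0.0465, 0.17 and -0.21, so the probe sets disagreed on this rise. Genes higher at 24 h at an adjusted p under 0.05 made up 2.21% in clone #10, 9.18% in clone #20, 2.9% in clone #1 and 10.6% in clone #6, and 6.21% of all pairs. Neither ABCG1 nor any other measured member, at its leading probe set, was among them in any clone. NR1H3 and LPCAT3 differed by at most 0.18 in any clone.

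**Figure D4:**
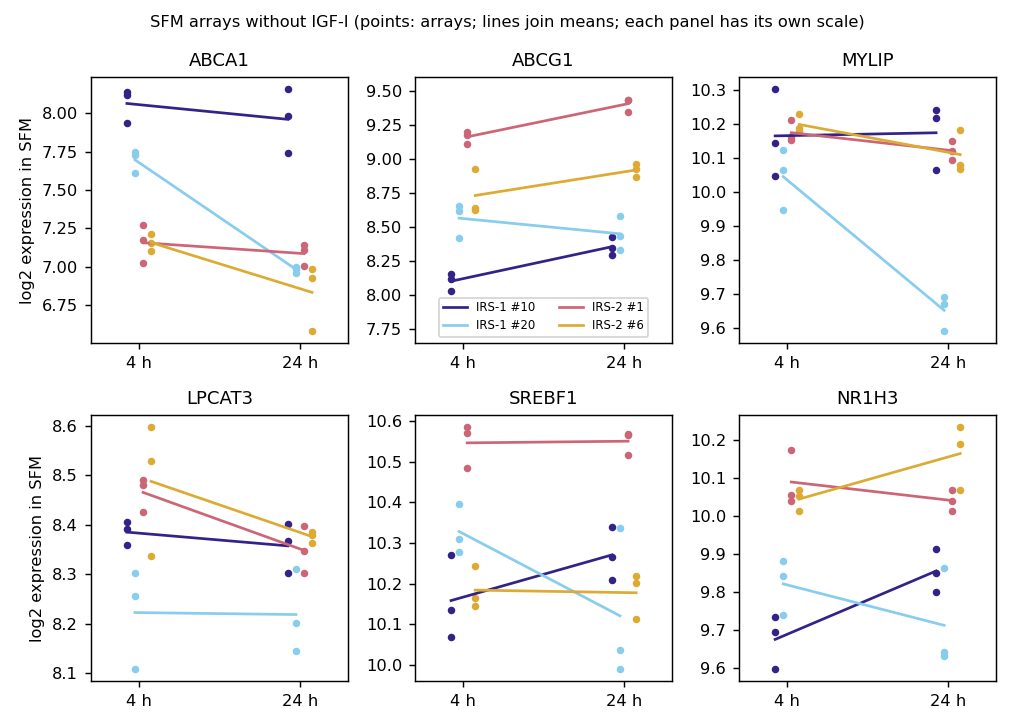
Log2 expression of the 6 genes (leading probe set) on the SFM arrays at 4 h and 24 h; points are single arrays, lines join the means of 3 arrays, colours mark the clones, and each panel has its own y axis. ABCA1 and MYLIP lie lower at 24 h in clone #20, by 0.71 and 0.39, and ABCG1 is ordered by clone from clone #1 at the top to clone #10 at the bottom.

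The genes around the set were followed in 7 lists with 98 genes, of which 80 were measured. After IGF-I, 1 of 640 pairs of gene and comparison was called in limma, HMGCS1 in clone #6 at 4 h. HMGCS1 encodes an early enzyme of cholesterol synthesis and is a target of the SREBP factors. Its mean rose from 10.57 to 11.17, a log2 difference of 0.60 ± 0.07 (SE, n = 3; adjusted p = 1.03e-07), and it fell under the fold threshold without replicate A. Higher calls made up 0.273% of all genes in that comparison and 0.124% over the 8 comparisons. The other genes named from the lists were picked after their values were seen, and all their changes were under 1.5-fold.

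The list of SREBP processing and target genes had 16 measured members. With no fold threshold, 5 of the 16 rose in clone #6 at 4 h (1.89% of all genes did) and 4 in clone #1 (1.53%). In clone #10 at 4 h 2 rose and 2 fell, beside 1.18% and 1.47% of all genes. In clone #20 1 rose and 1 fell, beside 1.17% and 3.54%. Over the 8 comparisons 13 of 128 pairs were higher and 13 lower, 10.2% each, beside 2.75% higher and 2.87% lower among all pairs. The median difference of the list at 4 h in clones #6 and #1 was 0.055 and 0.017, beside -0.015 and -0.0096 for all genes. HMGCS1 also rose in clone #1 (0.36, limma, adjusted p = 0.00263) and clone #10 (0.29, adjusted p = 0.0225) at 4 h, and it was 0.24 higher in clone #20 (adjusted p = 0.0627). SQLE, which makes squalene epoxide, rose at 4 h in all 4 clones, by 0.14 to 0.24 (adjusted p at most 0.0369), as 0.288% of all genes did.

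At 24 h the list of SREBP genes had 5 members lower in clone #20 (2.95% of all genes were), 3 in clone #10 (6.65%) and 2 in clone #6 (4.34%). The 1 member that rose at 24 h was ELOVL6, a fatty acid elongase, in clone #20 (0.33). INSIG2, a membrane protein that holds SREBP in the endoplasmic reticulum, fell by 0.36 in clone #6 (limma, adjusted p = 0.00397), by 0.31 in clone #20 (0.00993) and by 0.27 in clone #10 (0.0225). It was -0.11 in clone #1 (adjusted p = 0.658). In clone #20 it had already fallen at 4 h, by 0.30 (adjusted p = 0.0241). Its partner INSIG1 had risen at 4 h in clone #1 by 0.27 (adjusted p = 0.00438) and in clone #6 by 0.29 (adjusted p = 0.00119). In clone #20 at 24 h INSIG1 was lower (-0.18), as was SQLE (-0.23), both at an adjusted p under 0.05.

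Among partners and cofactors of the liver X receptors, 13 measured, RXRA, the retinoid X receptor alpha, was lower in all 8 comparisons, by 0.15 to 0.23 on the log2 scale. It passed the adjusted p in 6 of them, and not in clone #1 at 4 h (limma, adjusted p = 0.0720) or clone #10 at 24 h (0.0700). By sign alone, 20.7% of all genes were lower in all 4 clones at 4 h and 13.9% at 24 h. NCOA2, a nuclear receptor coactivator, fell at 4 h in clone #20 by 0.37 (adjusted p = 0.00176) and in clone #6 by 0.27 (0.0443), and at 24 h in clone #10 by 0.31 (0.00480). Over the 8 comparisons this list had 12 of 104 pairs lower and 1 higher, beside 2.87% lower and 2.75% higher among all genes. The share of all genes higher was 1.18% in clone #10 and 1.17% in clone #20 at 4 h, and 4.39%, 7.46%, 2.93% and 1.42% in clones #10, #20, #1 and #6 at 24 h.

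Of the LDL receptor family and partners of MYLIP, 4 of 10 genes were measured. LRP8, an apolipoprotein E receptor that the MYLIP ligase also acts on, rose at 24 h in all 4 clones, by 0.51 in clone #10, 0.40 in clone #20, 0.54 in clone #1 and 0.41 in clone #6 (limma, adjusted p at most 0.000553). Genes that rose in all 4 clones at 24 h with an adjusted p under 0.05 made up 0.688% of all genes. At 4 h LRP8 rose in clone #20 (0.38, adjusted p = 0.00209) and clone #10 (0.28, adjusted p = 0.0417). VLDLR, a related receptor, did not pass the test in any IGF-I comparison.

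Of 16 other target genes of the liver X receptors, APOD, a lipid-carrying secreted protein, fell at 24 h in all 4 clones, by 0.24 to 0.34 (limma, adjusted p at most 0.00686), as 0.536% of all genes did. FASN, the fatty acid synthase gene, fell in clone #20 at 24 h by 0.39 (adjusted p = 0.0330) and gave values from -0.003 to 0.021 in the other 3 clones. APOE ran from -0.20 to -0.027 over the 8 comparisons and did not pass in any (lowest adjusted p = 0.0972). SCD, which makes monounsaturated fatty acids, ran from -0.11 to 0.047 (lowest adjusted p = 0.0762). Over the 8 comparisons 6 of 128 pairs of this list were lower (4.69%) and 2 higher (1.56%), near the shares of all pairs (2.87% and 2.75%).

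In the list of cholesterol efflux and storage genes, 15 measured, 8 of 120 pairs were higher (6.67%) and 2 lower (1.67%), beside 2.75% and 2.87% of all pairs. STARD4, a carrier of cholesterol between membranes, rose at 4 h in clone #1 by 0.31 (limma, adjusted p = 0.00411) and in clone #6 by 0.36 (0.000380). SOAT1, which esterifies cholesterol for storage, rose at 24 h in clone #20 by 0.34 (0.00729) and in clone #6 by 0.29 (0.0438). Genes of oxysterol metabolism, 8 measured, had 2 of 64 pairs higher (3.12%, near the share of all pairs), both EBP at 24 h, a sterol isomerase (0.29 in clone #10 and 0.19 in clone #1). The other lysophospholipid acyltransferases, 8 measured, had 6 of 64 pairs lower (9.38%) at an adjusted p under 0.05 in limma, LPCAT1 in clone #20 at 24 h (-0.28) among them.

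**Figure D5:**
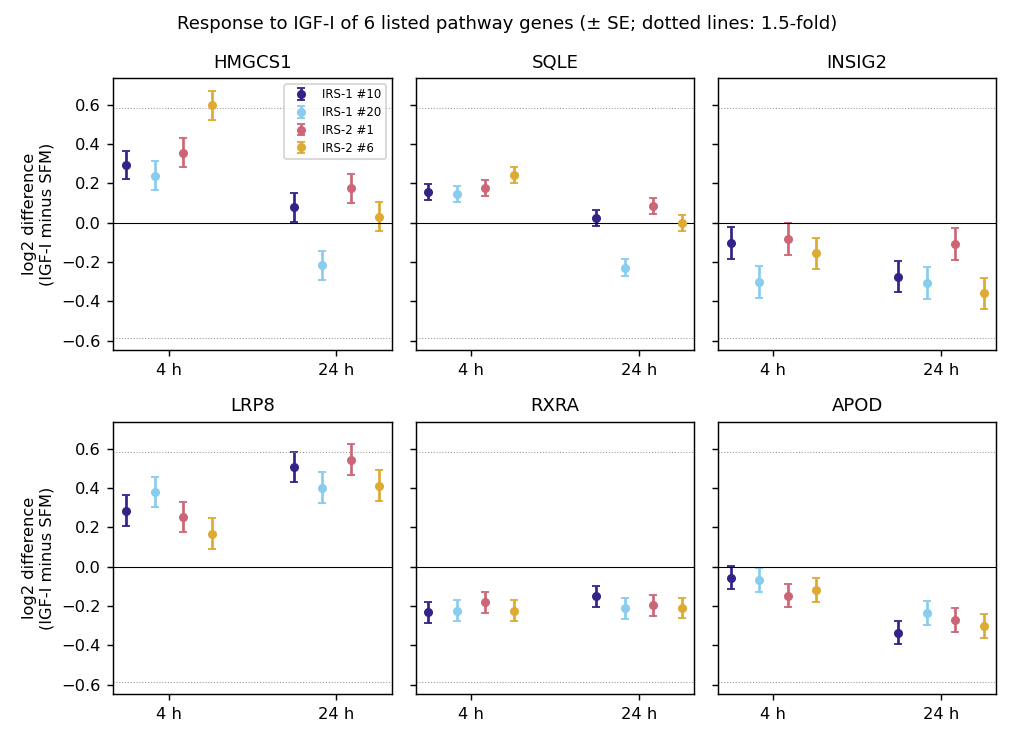
Log2 difference (IGF-I minus SFM) with its SE for 6 genes of the lists, by time and clone; dotted lines mark 1.5-fold. HMGCS1 and SQLE are above 0 in all 4 clones at 4 h, LRP8 is above 0 throughout, and RXRA and INSIG2 are below 0 throughout, as is APOD, mainly at 24 h.

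The genes whose 16 group means followed those of ABCA1 most closely were ZNF605, a zinc finger gene (Pearson r = 0.943), CHST15, a sulfotransferase of chondroitin sulfate (0.940), LINC-PINT, a long noncoding RNA (0.938), HEXIM2, an inhibitor of the elongation kinase P-TEFb (0.935), and TRIM52 (0.931). They were sought among 5595 genes with a mean of at least 5 and a range of at least 1.5-fold over the groups, for which the median r was -0.324. The group means share clones and SFM arrays, so they are not independent points. With each clone's own mean taken off, the r of these 5 genes was 0.849 to 0.949. CHST15 read 9.69 in SFM and 9.28 after IGF-I in clone #10 at 4 h, and 8.99 and 8.36 in clone #6. Over the same group means the other measured members had r of 0.299 for MYLIP, -0.011 for SREBF1 and -0.074 for LPCAT3. It was -0.445 for NR1H3 and -0.491 for ABCG1, both of which had IGF-I differences below 0 in all 8 comparisons. These r include each clone's own level, and r without it was not computed for the members. The 5 genes were picked for the highest r, so the lower r of the members is not read as a result.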

How the data were processed

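RNA of 48 arrays (Affymetrix HG-U133 Plus 2.0, 16 groups of 3) was measured. The deposited values are log2 probe set summaries that the authors made with GC-RMA; the version, genome build and raw intensities were not given in the sources used here. The methods describe a further normalization to untreated cells, which these values do not hold. RNA was extracted with one of 2 kits, and which one is not given per array.

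Symbols came from the platform annotation (1 symbol a probe set), and gene positions and promoters from RefSeq (GRCh38.p14). After 62 control probe sets were left out, limma 3.58.1 (R 4.3.3) fitted 1 mean per group to 54613 probe sets, with a variance trend and 32 residual degrees of freedom. Contrasts set IGF-I against SFM per clone and time, and SFM at 24 h against SFM at 4 h per clone. P-values were Benjamini-Hochberg adjusted over all probe sets. A call needed an adjusted p under 0.05 and 1.5-fold. For the members, calls are counted as a description and p-values are not given, since the levels without IGF-I and the IGF-I differences chose them. A gene was represented by its probe set of highest mean, and no filter on dim probe sets was used. The number of arrays limits the precision. The fit was tested on simulated data. Figures were drawn in Python 3.11.15 with matplotlib 3.10.9.

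Named genes were all members with every probe set, called genes of each list, the 5 genes most like ABCA1, and others said to be picked later. The members and lists were chosen with earlier results of these data known. Alternatives were quantile normalization, median centring, a filter that kept probe sets reaching log2 5 on 3 or more arrays, separate fits of 6 arrays, no variance trend, the methods' t-test, other fold thresholds, averaging the probe sets of each gene, replicate letters as a block and each letter left out. The second ABCA1 probe set and the t-test with adjustment were added after seeing the data.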

Additional observations from a re-analysis of the deposited data

Results flagged for a closer look

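At its leading probe set (213615_at) the small LPCAT3 difference changed sign between the 2 times in 2 clones. There every IGF-I array lay above the SFM mean at 4 h and below it at 24 h. At 4 h the difference was 0.044 ± 0.059 (SE) in clone #20 and 0.089 ± 0.059 in clone #6. At 24 h the SFM and IGF-I means were 8.22 and 8.19 in clone #20, and 8.38 and 8.32 in clone #6. The 24 h response minus the 4 h response was -0.071 in clone #20 and -0.15 in clone #6. The difference between times was not tested, and the share of all genes with this pattern was not counted. The arrays overlapped at both times in clone #20 and at 4 h in clone #6. The second LPCAT3 probe set (202793_at) did not show this, with 0.017 at 4 h and 0.12 at 24 h in clone #20 and -0.026 and -0.00050 in clone #6.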

How the results depend on the processing

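The 3 member calls after IGF-I, the 1 call over time in SFM and the 1 call in the lists kept their number with the dim filter, separate fits, no variance trend and the methods' t-test (unadjusted). ABCG1 in clone #10 at 24 h passed the fold threshold with quantile normalization (-0.59), for 4 member calls, and with median centring (-0.60), which also added ABCA1 in clone #6 at 4 h (-0.59), for 5. Both kept the other counts. With Benjamini-Hochberg adjustment of the methods' t-test the counts were 0, 0 and 0. Without a fold threshold they were 9, 4 and 71, and at 2-fold 0, 0 and 0. Averaging the probe sets of each gene gave 0, 0 and 0, and the second ABCA1 probe set gave 1 member call after IGF-I and 0 over time in SFM.

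With the mean of its probe sets, ABCA1 was -0.25 (clone #10), -0.29 (clone #20), -0.16 (clone #1) and -0.29 (clone #6) at 4 h, and -0.24 (clone #10), -0.16 (clone #1) and -0.076 (clone #6) at 24 h. The second probe set gave -0.32 in clone #20 at 4 h and -0.21 in clone #1 at 24 h. Over time in SFM in clone #20 the mean gave -0.31 and the second probe set -0.53, both under 1.5-fold. The gap between the highest and lowest clone in SFM at 4 h went from 0.91 to 0.43 with the mean. The 2 dim probe sets that enter this mean did not follow the others, as given above.

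Leaving out a letter, ABCA1 in clone #6 at 24 h ran from -0.41 to -0.067. Without replicate A, ABCA1 in clone #20 at 4 h was -0.57 and no longer called, HMGCS1 was lost, and LRP8 was called in clone #10 and clone #1 at 24 h, so the list calls ran from 1 to 2. Without replicate B, ABCA1 in clone #10 at 24 h was -0.58 and not called while ABCG1 was (-0.65). Without replicate C, ABCA1 in clone #6 at 4 h was called (-0.67). No called value turned its sign, but SREBF1 differences near 0 did under other scalings (clone #20 at 4 h from -0.055 to 0.014 with quantile normalization, for example). A further 63 values, those of the other members and of ABCA1 over time in SFM where it was not called, had 444 checks over the alternatives. Of these checks, 428 kept within the spread or on their side of the threshold and 16 moved, 9 of them with averaged probe sets.

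The replicate letters did not pair the samples: of 24 pairs of arrays with the same letter, 3 had deviations correlated above 0.1 (range -0.47 to 0.305). With the letter as a replicate block the counts of calls were 3, 1 and 1. Signal over background is unknown for these summaries, which limits what the dim ABCA1 and ABCG1 probe sets can show.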

Other observations

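Over time in SFM the lists are described by their members past an adjusted p under 0.05 at any fold, and the difference between clones was not tested. The genes named were picked after their values were seen. In clone #6, 7 of 16 SREBP processing and target genes rose from 4 h to 24 h (10.6% of all genes did), among them INSIG2 (0.30, limma, adjusted p = 0.00820), SREBF2 (0.28, adjusted p = 0.00280) and SQLE (0.20, adjusted p = 0.000493). In clone #20, 6 of the same 16 fell (16.6% of all genes did), among them LSS, the lanosterol synthase gene (-0.41, adjusted p = 8.72e-08), and SQLE (-0.13, adjusted p = 0.0189). In clone #10, 2 of the 16 rose (2.21% of all genes did), HMGCS1 (0.41) and ELOVL6 (0.25). In clone #1, 0 passed in either direction.

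In clone #20 DHCR7, the last enzyme of one branch of cholesterol synthesis, fell by 0.39 (limma, adjusted p = 1.32e-06), SCARB1, a receptor for high-density lipoprotein, by 0.30 (adjusted p = 5.91e-05) and the coactivator gene EP300 by 0.48 (adjusted p = 0.00459). APOE rose in clone #6 by 0.42 (adjusted p = 1.14e-05) and in clone #10 by 0.26 (adjusted p under 0.05). It gave 0.071 in clone #20 (adjusted p = 0.470). MBOAT1, a lysophospholipid acyltransferase, fell by 0.39 in clone #20 (adjusted p = 1.93e-06) and by 0.33 in clone #6 (adjusted p = 5.05e-05). It was also lower in clone #1 (-0.22, adjusted p under 0.05). These tests share SFM arrays with the IGF-I comparisons.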
